A study of Homo sapiens with 36 samples.

Results

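The 37 genes described here encode proteins that carry cells into and through mitosis, from the CDK1 kinase and its cyclins to the factors that divide the cell. They were taken by name from a list, and 37 of 37 were present among the 20802 genes of the count files. All 37 also passed the filter on low counts, which kept 12102 genes for testing. The expression values came from LoVo, an established cell line from a human colorectal cancer. Cells received a MEK inhibitor at 0.03, 0.1, 0.3, 1, 3, 10, 30, 100, 300 or 1000 nM, or its solvent DMSO, and RNA was taken after 24 hours. MEK activates the kinase ERK, and the question was which expression changes the inhibitor brings at each dose, with DMSO as the control. Each dose had 3 libraries, and DMSO had 3 on each of a pair of sequencing chips. All groups were grown in F-12K medium with fetal bovine serum, and the labels name no other agent or genetic change. The chip is given for DMSO libraries only. The labels speak of biological replicates but not of separate cultures, so p-values reflect the spread among the libraries, which may be technical.

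Total counts lay between 2972186 and 4751839 per library. Levels are CPM, counts scaled to a common library size. They depend on how well each gene's amplicon amplified, so levels of different genes are not compared. A gene was called, and is said to have risen or fallen, at a Benjamini-Hochberg adjusted p below 0.05 in edgeR's quasi-likelihood test. Against DMSO, the larger of the p-values for the 2 chips was adjusted, and both changes had to have the same sign. Fold changes are log2 values relative to the average of the 2 DMSO groups. The standard error (SE) given with each is the larger of those against the 2 DMSO groups taken singly. Same-numbered DMSO libraries of the 2 chips deviated together, so DMSO means are over 3 pairs. The 9 epithelial markers checked were detected in every group, with a summed level of 3237 to 4793 CPM over all 36 libraries. In earlier results 3 libraries stood apart from the others of their dose. These were the second replicate at 0.1 nM and the first replicates at 1 and 1000 nM. Replicate 3 of 1000 nM was not among them. Its root mean square deviation from the group mean over all genes was nevertheless larger than that of the 0.1 nM library (0.32 against 0.27 in log2 CPM).

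Mitosis begins when CDK1 bound to cyclins A and B becomes active, helped by PLK1 and the Aurora kinases. Kinetochores then attach chromosomes to the spindle, a checkpoint holds the anaphase promoting complex (an enzyme that marks proteins for destruction) until every chromosome is attached, and the spindle midzone guides division of the cell. Most of these genes are transcribed in the G2 phase of each cycle, through promoters that often hold CCAAT boxes, bound by NF-Y, and a cell cycle homology region (CHR), bound by complexes that contain LIN9, LIN54 and MYBL2. In a bulk sample, fewer cells in G2 and mitosis and less RNA per cell cannot be told apart.

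Promoter sequences were available from RefSeq (GRCh38.p14) for 30 of the 37 genes, as windows from 250 bases before to 50 after the transcription start. Some genes had more than 1 window, and a gene counted if any of its windows held the letters. The letters CCAAT, or ATTGG for the other strand, were present in 25 of 30 genes (83.3%), against 39.7% of 27305 genes. The CHR letters TTTGAA or TTCGAA, on either strand, were present in 22 (73.3%), against 19.5%. Both were present within 1 window in 19 (63.3%), against 7.85%. In the 150 bases before the start alone, the counts were 24 for CCAAT (80.0% against 27.8%), 14 for CHR (46.7% against 9.72%) and 13 for both (43.3% against 2.65%). The windows of MAD2L1, CDCA8 and CDCA3, which had the smallest adjusted p at 1000 nM among genes with 1 window, are set beside those of NEK2, CCNB2 and DLGAP5, which had the largest. Each is shown 5′ to 3′ over the 150 bases before the start, with CCAAT and CHR letters on either strand in capitals.
MAD2L1, chr4:120066849-120066998, minus strand: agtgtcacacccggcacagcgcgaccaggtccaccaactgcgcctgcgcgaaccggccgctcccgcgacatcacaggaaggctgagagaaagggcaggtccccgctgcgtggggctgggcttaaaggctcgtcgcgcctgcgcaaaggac
CDCA8, chr1:37692366-37692515, plus strand: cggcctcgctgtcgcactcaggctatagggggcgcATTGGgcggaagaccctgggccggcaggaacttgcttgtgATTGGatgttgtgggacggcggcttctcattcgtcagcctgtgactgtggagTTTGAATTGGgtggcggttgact
CDCA3, chr12:6851287-6851436, minus strand: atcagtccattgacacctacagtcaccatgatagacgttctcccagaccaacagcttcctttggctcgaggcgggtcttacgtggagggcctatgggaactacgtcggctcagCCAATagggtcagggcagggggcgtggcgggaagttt
NEK2, chr1:211675622-211675771, minus strand: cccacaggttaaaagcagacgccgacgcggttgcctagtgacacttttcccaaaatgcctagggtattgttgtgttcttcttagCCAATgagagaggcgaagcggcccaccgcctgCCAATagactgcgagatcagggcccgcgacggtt
CCNB2, chr15:59104996-59105145, plus strand: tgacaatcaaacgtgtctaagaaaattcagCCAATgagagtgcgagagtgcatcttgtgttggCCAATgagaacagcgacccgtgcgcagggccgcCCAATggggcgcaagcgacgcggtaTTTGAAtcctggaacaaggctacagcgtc
DLGAP5, chr14:55191586-55191735, minus strand: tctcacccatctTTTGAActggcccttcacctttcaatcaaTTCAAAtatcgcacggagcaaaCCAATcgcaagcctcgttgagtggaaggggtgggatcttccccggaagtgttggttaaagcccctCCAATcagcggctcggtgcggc

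CCNB2 and DLGAP5, neither called at 1000 nM, hold 3 and 2 CCAAT boxes with 1 and 2 CHR matches. CDCA8, which fell at that dose, holds 3 CCAAT boxes, the last of which overlaps its CHR match in the run TTTGAATTGG. MAD2L1, with the smallest adjusted p of all 37, has no match in this stretch, although its whole window has 1 CCAAT box at -229 and 1 CHR match at 24, counted in bases from the start. The CHR match of CDCA3 begins at -3 and runs past the start, so it is not in the stretch shown. Over the 30 genes with a window, those with both motifs fell at 1000 nM in 14 of 19 cases with a median log2 fold change of -0.50, and the others in 7 of 11 with a median of -0.46. With and without a CCAAT box the numbers were 17 of 25 (median -0.46) and 4 of 5 (-0.75), and with and without CHR letters 17 of 22 (-0.51) and 4 of 8 (-0.44). These counts describe letters in a window and were not tested.

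No mitosis gene was called at the 3 lowest doses, and from 1 nM every call was a fall. At 0.03, 0.1 and 0.3 nM edgeR's quasi-likelihood test called 0 of 37 in either direction, as did DESeq2, and 0% of all genes were called lower and 0% higher at each of these doses. At an unadjusted p below 0.05 there were 0, 0 and 2 mitosis genes lower and 0, 1 and 0 higher at these doses. At 1 nM, 5 of 37 fell, against 4.02% of all genes lower and 3.95% higher. At 3 nM, 4 fell, against 6.68% lower and 6.66% higher. At 10 nM the number was 19, against 13.3% lower and 13.5% higher. At 30 nM 27 fell (18% of all genes lower, 18% higher), followed by 29 at 100 nM (18.8% and 18.4%) and 31 at 300 nM (23% and 22.1%). At the highest dose, 1000 nM, 28 fell (20.7% and 21.2%). No mitosis gene was called higher at any dose by edgeR's quasi-likelihood test or by DESeq2, and at an unadjusted p below 0.05 there was 1, at 0.1 nM. The counts at 1 and 3 nM depended on how DMSO was handled and on single libraries. With same-numbered DMSO libraries summed, 10 genes fell at 1 nM and 9 at 3 nM. Against the mean of the DMSO groups, which takes all 6 libraries as replicates, the counts were 13 and 13. With libraries left out singly they were 2 to 5 at either dose. In the main counts the share of mitosis genes that fell was above that of all genes from 1 nM upwards. At 1 and 3 nM this rested on those few, changeable calls.

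The median log2 fold change of the 37 genes was -0.06 at 0.3 nM, -0.20 at 1 nM and -0.22 at 3 nM. It went to -0.37 at 10 nM and -0.49 at 30 nM, reached -0.56 at both 100 and 300 nM, and was -0.52 at 1000 nM. The median over all tested genes stayed between 0.00 and 0.01 from 0.3 nM upwards. In single libraries the median distance of the 37 genes from their DMSO mean was between -0.02 and 0.03 in the 6 DMSO libraries. These libraries make up that mean, which draws their own values towards 0. The distance was -0.52, -0.60 and -0.54 in the 3 libraries at 1000 nM, so the 3 libraries did not overlap with DMSO on this measure. At 1000 nM, 27 of the 37 genes had every treated library below every DMSO library and 0 had every treated library above, against 22.4% and 22.9% of all genes. Without the 3 libraries that stood apart, 27 genes fell at 1000 nM.

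**Figure D1:**
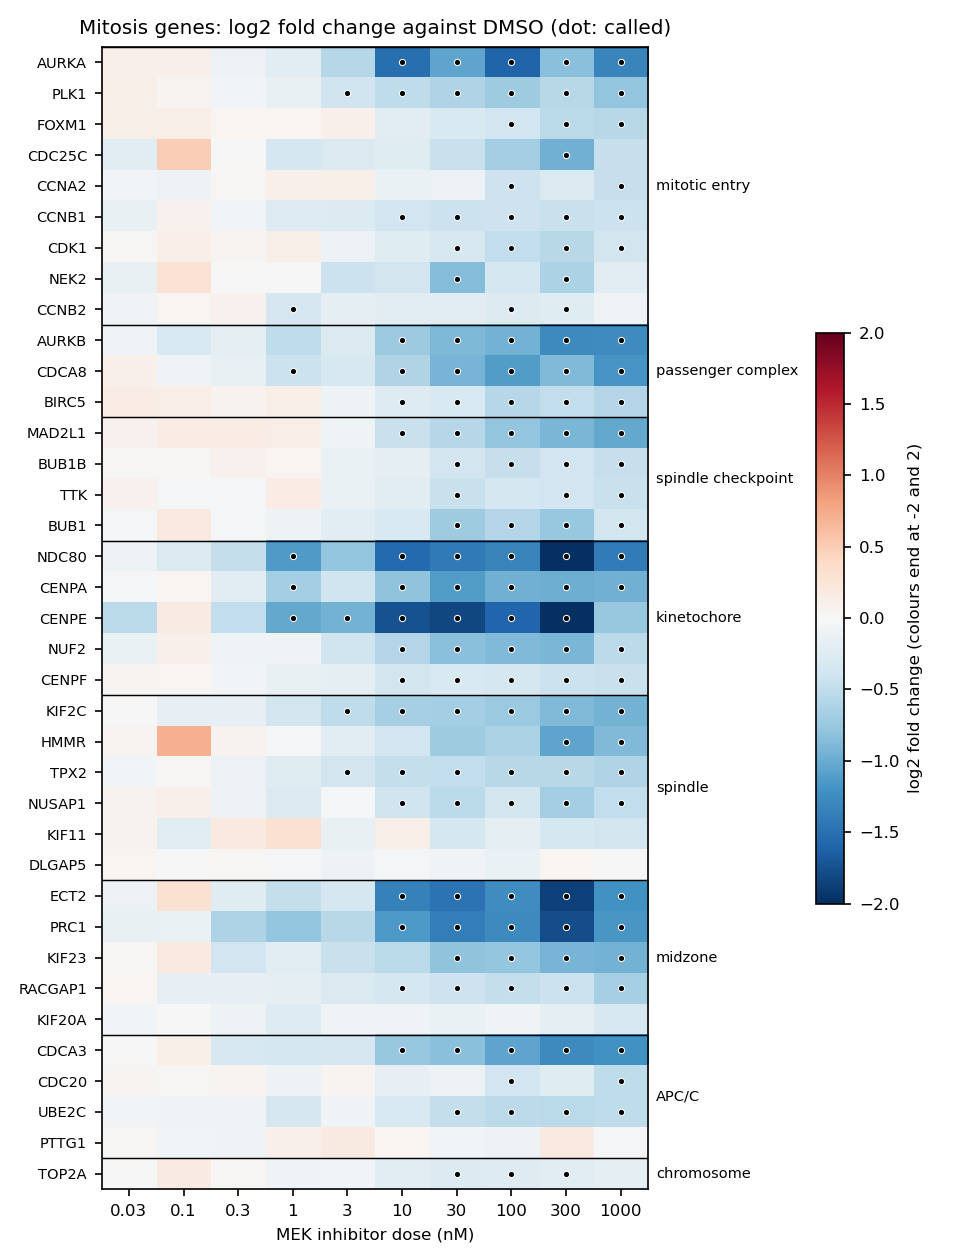
Log2 fold change against DMSO of the 37 mitosis genes (rows, by role) at each of 10 doses in nM (columns), with blue for lower and red for higher values and a dot for each call. Dots are absent up to 0.3 nM, number 5 at 1 nM and reach 31 at 300 nM, and the rows of DLGAP5, KIF11, KIF20A and PTTG1 hold none.

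Of the 9 genes of mitotic entry, 6 fell at 1000 nM, with a median of -0.45. PLK1, a kinase that promotes entry and spindle assembly, had 195 CPM in its lowest DMSO library, a median of 210 CPM over DMSO and 236 CPM in the highest, against 138, 125 and 105 CPM at 1000 nM. The treated libraries were all below DMSO, a change of -0.79 (SE 0.106; adjusted p = 6.17e-08 in edgeR's quasi-likelihood test). CDK1, the kinase that drives entry, had 114, 122 and 130.2 CPM as lowest, median and highest DMSO values and 90.6, 85.1 and 109 CPM at 1000 nM. All 3 were below DMSO, replicate 3 by the least, and the change was -0.37 (SE 0.0993), a call lost without replicate 2 of 1000 nM (adjusted p = 0.0505 in edgeR's quasi-likelihood test). CCNB1, the main cyclin partner of CDK1, had 155, 159 and 163 CPM in DMSO and 111, 123 and 119.9 CPM at 1000 nM. These groups did not overlap either, with a change of -0.43 (SE 0.104). FOXM1, a transcription factor that activates many genes of this list, had 129, 142 and 155 CPM in DMSO and 71.8, 106 and 109 CPM at 1000 nM. Its 3 treated libraries were below DMSO and replicate 1 was lowest, with a change of -0.55 (SE 0.130).

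AURKA, which matures the spindle poles, fell by 1.32 on the log2 scale (SE 0.320), and CCNA2, cyclin A, by 0.45 (SE 0.120). The call of CCNA2 was lost without replicate 3 of 1000 nM (adjusted p = 0.0915 in edgeR's quasi-likelihood test). The other 3 genes of this role were not called at 1000 nM. CCNB2, the second B-type cyclin, had 285, 295 and 305 CPM as lowest, median and highest DMSO values and 317, 267 and 250.2 CPM at 1000 nM. One treated library was above all DMSO libraries and the others below, with a value of -0.09 (SE 0.0882; adjusted p = 0.624 in edgeR's quasi-likelihood test). CCNB2 fell at 1 nM (-0.33, SE 0.0886), where its libraries had 232, 226 and 244 CPM, and was also called at 100 and 300 nM. CDC25C, the phosphatase that activates CDK1, stood at -0.46 (SE 0.283), and the centrosome kinase NEK2 at -0.22 (SE 0.177). CDC25C fell at 300 nM (-0.96, SE 0.299) and at 1000 nM was called against the DMSO libraries of chip 1 alone. NEK2 fell at 30 nM (-0.87, SE 0.188) and at 300 nM (-0.64, SE 0.182).

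**Figure D2:**
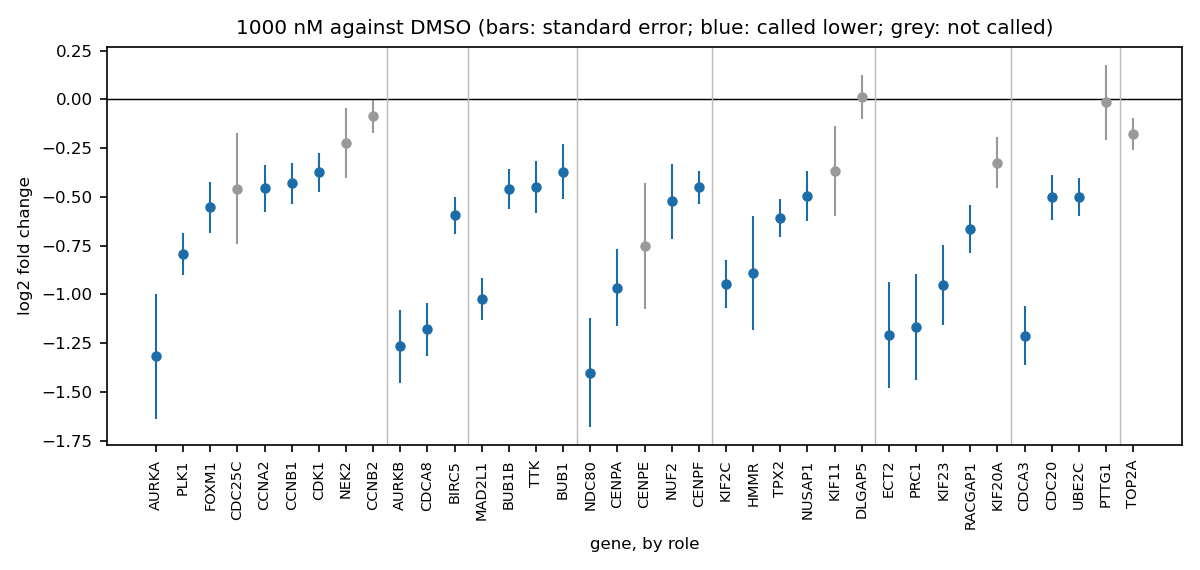
Log2 fold change at 1000 nM against DMSO (vertical axis) of each of the 37 mitosis genes, grouped by role from mitotic entry at the left to TOP2A at the right, with bars for the standard error. Blue points mark the 28 genes that fell, with NDC80 lowest at -1.40, and grey points the 9 that were not called, of which DLGAP5 lies at 0.01.

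All 3 genes of the chromosomal passenger complex, which corrects faulty spindle attachments, fell at 1000 nM, with a median of -1.18. CDCA8, the borealin subunit, had 52.2, 54.5 and 61.9 CPM as lowest, median and highest DMSO values and 20.8, 25.7 and 26.5 CPM at 1000 nM. No treated library reached the DMSO range, and the change was -1.18 (SE 0.137; adjusted p = 7.69e-10 in edgeR's quasi-likelihood test). AURKB, the kinase of the complex, fell by 1.27 (SE 0.187). BIRC5, the survivin subunit, had 139, 141 and 150.3 CPM in DMSO and 105, 91.0 and 87.1 CPM at 1000 nM. It also did not overlap with DMSO but changed by less, -0.59 (SE 0.0946).

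All 4 spindle checkpoint genes fell at 1000 nM, with a median of -0.45. MAD2L1, which blocks the activator of the anaphase promoting complex, had 82.1, 87.6 and 93.5 CPM as lowest, median and highest DMSO values and 47.6, 36.9 and 44.2 CPM at 1000 nM. Its mean was 87.3 ± 2.72 CPM (SD, n = 3 pairs) in DMSO and 42.9 ± 5.47 CPM (SD, n = 3) at 1000 nM, a change of -1.02 (SE 0.110). It had the smallest adjusted p of the 37 genes (edgeR's quasi-likelihood test, 2.13e-10). BUB1B and TTK, kinases of the checkpoint, fell by 0.46 (SE 0.105) and 0.45 (SE 0.135). TTK lost its call without replicate 1 of DMSO chip 1 (adjusted p = 0.134 in edgeR's quasi-likelihood test). BUB1, another checkpoint kinase, had 62.6, 76.6 and 84.1 CPM in DMSO and 53.5, 48.0 and 68.3 CPM at 1000 nM. Replicate 3 lay within the DMSO range, the change was -0.37 (SE 0.139; adjusted p = 0.0418 in edgeR's quasi-likelihood test), and the call was lost under several alternatives, including with library totals only (0.0767) and without the 3 libraries that stood apart (0.134). Among libraries left out singly, it was lost without replicate 2 or 3 of DMSO chip 1, replicate 2 of DMSO chip 2, or replicate 1 or 2 of 1000 nM, with adjusted p up to 0.217 in edgeR's quasi-likelihood test. At 300 nM BUB1 was at its lowest value, -0.76 (SE 0.142).

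Of the 5 centromere and kinetochore genes, 4 fell at 1000 nM, with a median of -0.75. CENPF, a large kinetochore protein, had 235, 251 and 262 CPM as lowest, median and highest DMSO values and 187, 185 and 176 CPM at 1000 nM. The groups were far apart relative to their spread, with a change of -0.45 (SE 0.0844; adjusted p = 2.09e-05 in edgeR's quasi-likelihood test). CENPA, the centromeric histone, fell by 0.96 (SE 0.197). NDC80, which binds microtubules directly, fell by 1.40 (SE 0.278), and its partner NUF2 by 0.52 (SE 0.192). The value of NDC80 was the lowest of the 37 genes but rested on single libraries: it was -2.08 without replicate 3 of 1000 nM and -1.04 without replicate 1, which is less in size than AURKB, AURKA and CDCA3 had with any library left out. The call of NUF2 was lost with DESeq2 (adjusted p = 0.0605), with no filter and with only the compared groups fitted, and with edgeR's quasi-likelihood test without any of 6 single libraries, including each one of 1000 nM, with adjusted p up to 0.130. CENPE, a motor that moves chromosomes to the spindle equator, had 5.51, 9.06 and 10.7 CPM in DMSO and 3.10, 3.22 and 8.20 CPM at 1000 nM. Only replicate 3 reached the DMSO range, and the value of -0.75 (SE 0.321) was not called (adjusted p = 0.0599 in edgeR's quasi-likelihood test). Without that library it was -1.41 with a call (adjusted p = 0.00195 in edgeR's quasi-likelihood test). At 300 nM, where its libraries had 1.16, 2.04 and 1.80 CPM, CENPE fell by 2.34 (SE 0.392), the largest fall of any of the 37 genes at any dose.

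Of the 6 spindle motors and microtubule proteins, 4 fell at 1000 nM, with a median of -0.55. KIF2C, a kinesin that takes microtubules apart at centromeres, had 77.0, 81.8 and 88.8 CPM as lowest, median and highest DMSO values and 42.2, 48.6 and 38.1 CPM at 1000 nM. All treated libraries were below DMSO, a change of -0.95 (SE 0.122; adjusted p = 2.00e-08 in edgeR's quasi-likelihood test). TPX2, which activates AURKA on the spindle, fell by 0.61 (SE 0.0972), the microtubule bundler NUSAP1 by 0.50 (SE 0.126) and the spindle protein HMMR by 0.89 (SE 0.291). HMMR lost its call without replicate 1 of 1000 nM (adjusted p = 0.112 in edgeR's quasi-likelihood test) or replicate 2 of DMSO chip 1 (0.106), and without the 3 libraries that stood apart (0.0634). KIF11, the motor that separates the spindle poles, stood at -0.37 (SE 0.230) and was called at no dose. DLGAP5, a spindle assembly factor, had 102, 106 and 113 CPM in DMSO and 127, 108 and 86.1 CPM at 1000 nM. Its treated libraries lay above, within and below the DMSO range, with a value of 0.01 (SE 0.112) whose sign turned under several alternatives. DLGAP5 was called at no dose either, with its lowest value at 100 nM, -0.14 (SE 0.112).

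**Figure D3:**
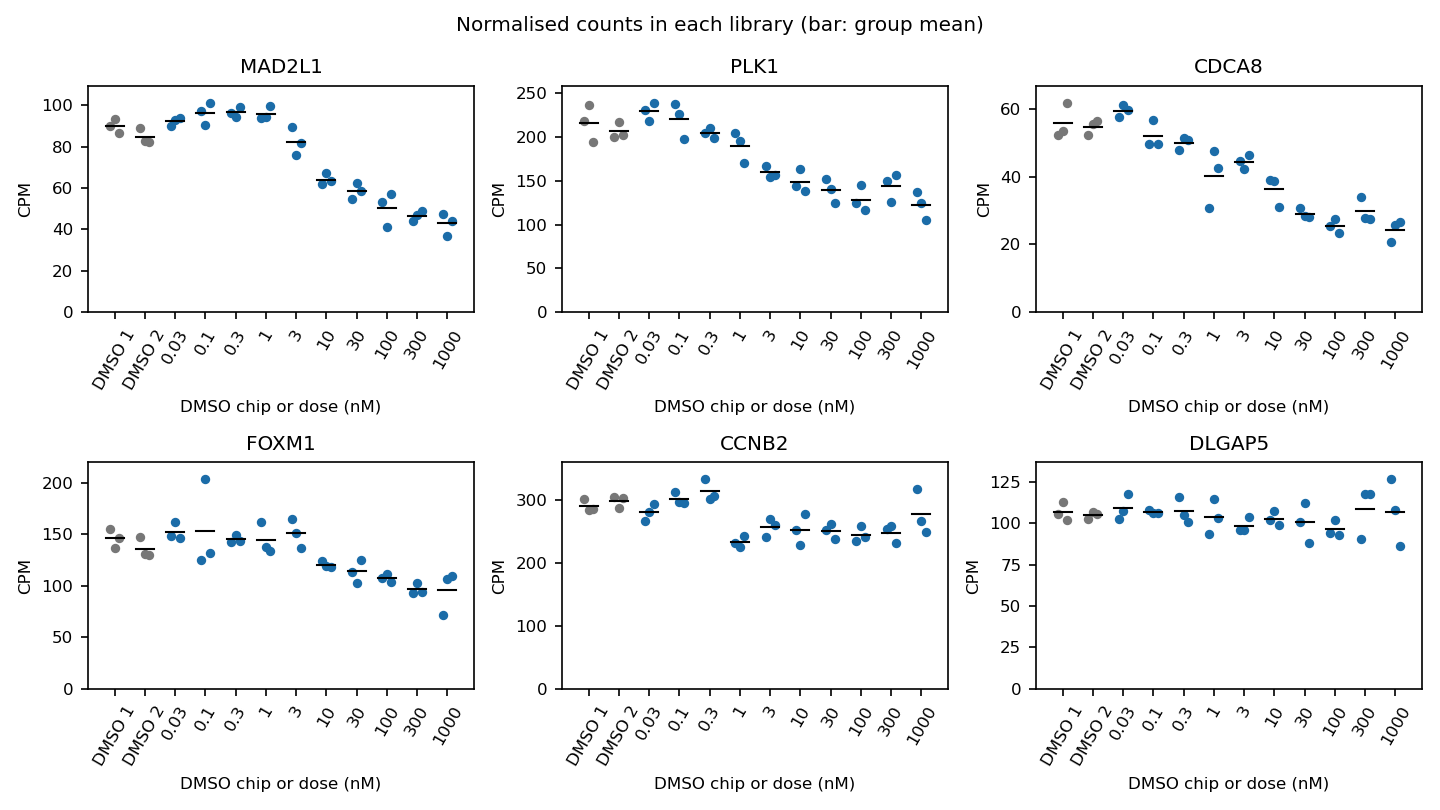
Normalised counts (CPM, vertical axis) of 6 mitosis genes in each of the 36 libraries, with DMSO of both chips in grey, the 10 doses in blue and a bar for each group mean. MAD2L1 goes from 87.3 CPM in DMSO to 42.9 CPM at 1000 nM, while DLGAP5 has 105.9 CPM in DMSO and 106.9 CPM at 1000 nM.

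Of the 5 midzone and cytokinesis genes, 4 fell at 1000 nM, with a median of -0.95. RACGAP1, a subunit of the centralspindlin complex, had 74.0, 77.6 and 85.1 CPM as lowest, median and highest DMSO values and 61.6, 49.7 and 38.1 CPM at 1000 nM. The groups did not overlap, although the treated libraries were spread widely, and the change was -0.66 (SE 0.125; adjusted p = 3.11e-05 in edgeR's quasi-likelihood test). KIF23, its kinesin partner, fell by 0.95 (SE 0.205), and PRC1, which bundles midzone microtubules, by 1.17 (SE 0.271). ECT2, the exchange factor that starts furrow formation, fell by 1.21 (SE 0.272). KIF20A, a midzone kinesin, had 72.1, 78.2 and 81.1 CPM in DMSO and 54.6, 76.1 and 56.0 CPM at 1000 nM. Replicate 2 lay within the DMSO range, and the value of -0.33 (SE 0.132) was not called (adjusted p = 0.0597 in edgeR's quasi-likelihood test). It was called without that library (-0.50, adjusted p = 0.0063 in edgeR's quasi-likelihood test).

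Of the 4 genes of the anaphase promoting complex, its activators and substrates, 3 fell at 1000 nM, with a median of -0.50. CDCA3, a substrate recognition factor that promotes entry, had 38.2, 47.6 and 54.2 CPM as lowest, median and highest DMSO values and 17.2, 23.1 and 21.0 CPM at 1000 nM. The treated values did not reach the DMSO range, a change of -1.21 (SE 0.152; adjusted p = 4.71e-09 in edgeR's quasi-likelihood test). CDC20, the activator held by the checkpoint, and UBE2C, the ubiquitin carrier of the complex, fell by 0.50 (SE 0.114) and 0.50 (SE 0.0988). PTTG1, securin, which keeps separase inactive until anaphase, had 19.4, 21.3 and 26.1 CPM in DMSO and 27.0, 19.3 and 19.1 CPM at 1000 nM. Its treated libraries lay on both sides of the DMSO median, with a value of -0.02 (SE 0.192) that took the other sign with DMSO of chip 2 alone, and it was called at no dose. TOP2A, the topoisomerase that untangles sister chromosomes, had 291, 296 and 307 CPM in DMSO and 298, 238 and 252 CPM at 1000 nM. Replicate 1 lay within the DMSO range and the others below it, a value of -0.18 (SE 0.0822; adjusted p = 0.103 in edgeR's quasi-likelihood test). TOP2A was called at 30, 100 and 300 nM, and at 1000 nM without replicate 1 (-0.29; adjusted p = 0.00814 in edgeR's quasi-likelihood test).

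The dose of the first call differed between genes, and differences between genes in this dose were not tested. The 5 genes called at 1 nM were NDC80 (-1.13, SE 0.269), CENPE (-1.03, SE 0.330), CENPA (-0.69, SE 0.192), CDCA8 (-0.43, SE 0.128) and CCNB2 (-0.33, SE 0.0886), of which 3 act at centromeres and kinetochores. Of these 5, only CENPE was also called at 3 nM. NDC80 had the smallest adjusted p (edgeR's quasi-likelihood test, 0.00947). Its DMSO libraries had a lowest value of 15.8 CPM, a median of 21.6 CPM and a highest of 24.2 CPM, and those at 1 nM had 9.65, 8.90 and 9.78 CPM. The 3 treated libraries were close together and below DMSO, and the call was lost without replicate 3 of DMSO chip 1 (adjusted p = 0.0757 in edgeR's quasi-likelihood test). At 1 nM, the number of mitosis genes called was 2 without replicate 3 of either DMSO chip, and 3 without replicate 2 of DMSO chip 2 or of 1 nM. At 3 nM, KIF2C had the smallest adjusted p (-0.51, SE 0.116), followed by PLK1 (-0.41, SE 0.104), TPX2 (-0.37, SE 0.0958) and CENPE (-0.94, SE 0.316), and 2 genes were called when replicate 3 of 3 nM, replicate 3 of DMSO chip 1 or replicate 2 of DMSO chip 2 was left out. At 10 nM all 3 passenger and all 5 kinetochore genes fell, with MAD2L1 of the 4 checkpoint genes and 3 of the 9 entry genes. Of all genes, 13.3% were called lower at that dose. The roles hold few genes, and differences between them were not tested. By adjusted p, the first genes at later doses were KIF2C at 10 nM (-0.66, SE 0.120), CDCA8 at 30 nM (-0.93, SE 0.134) and 100 nM (-1.12, SE 0.135), and CDCA3 at 300 nM (-1.27, SE 0.152).

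Of the 37 genes, 3 were called at every dose from 3 nM (PLK1, KIF2C and TPX2), 15 more from 10 nM, 5 from 30 nM, 1 from 100 nM (FOXM1), 2 from 300 nM (TTK and HMMR) and 2 at 1000 nM with a gap before (CCNA2 and CDC20). The other 9 were not called at 1000 nM, and 4 of them, KIF11, DLGAP5, KIF20A and PTTG1, were called at no dose. Curves of log2 CPM against dose gave an EC50, the dose of the midpoint of the change, with a standard error of its log10 below 0.2 for 11 of the 28 genes that fell at 1000 nM. Over all 28 the fitted values ran from 1.05 nM (NDC80) to 43.9 nM (CCNA2), with CDC20 at 41.3 nM and FOXM1 at 22.2 nM, but 17 of them had wider errors. The 11 with smaller errors ran from 1.42 nM for TPX2 to 14.8 nM for MAD2L1, with a median of 6.60 nM. KIF2C (1.66 nM, 1.16 to 2.37 nM at 1 SE either way), CENPF (1.97 nM) and PLK1 (2.39 nM) were at the low end with TPX2. CDCA8 (5.58 nM) and CDCA3 (6.60 nM) followed, then CDK1 (9.21 nM), BUB1B (9.68 nM), AURKB (10.4 nM) and BIRC5 (11.7 nM). The interval of TPX2 was 0.984 to 2.05 nM and that of MAD2L1 11.7 to 18.8 nM, while neighbours in this order had overlapping intervals, except PLK1 and CDCA8. DUSP6, a phosphatase transcribed under ERK control and read here as a measure of ERK output, had an EC50 of 9.60 nM (8.53 to 10.8 nM). Each midpoint is on the log2 scale, where the fitted change was -4.66 for DUSP6, -0.56 for TPX2 and -0.74 for PLK1. EC50s of genes with changes of such unlike size do not give the order in which they fell. At 1 nM DUSP6 already had 35.2, 37.5 and 35.6 CPM, below its lowest DMSO library at 58.5 CPM.

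Between doses, falls were most frequent from 3 to 30 nM, while the count from 0.3 to 3 nM was near the share of all genes. From 0.3 to 3 nM, 3 of 37 genes fell, against 7.1% of all genes lower and 6% higher, and 0 rose. PLK1 had the smallest adjusted p, with 204, 211 and 199 CPM at 0.3 nM and 167, 155 and 157 CPM at 3 nM, groups that did not overlap. Its change was -0.36 (SE 0.102), with a call lost without replicate 2 of either dose (adjusted p = 0.0507 and 0.0569 in edgeR's quasi-likelihood test). The count was 1 without replicate 1 or 2 of 0.3 nM or replicate 2 of 3 nM. From 3 to 30 nM, 11 fell, against 9.14% lower and 9.06% higher, and 0 rose. MAD2L1 had the smallest adjusted p, with 89.3, 75.9 and 81.8 CPM at 3 nM and 54.6, 62.5 and 58.8 CPM at 30 nM, again without overlap, a change of -0.49 (SE 0.104; adjusted p = 6.21e-04 in edgeR's quasi-likelihood test). Without replicate 1 or replicate 2 of 30 nM the number was 7. From 30 to 300 nM none was called by edgeR's quasi-likelihood test or by DESeq2, against 0.331% lower and 0.182% higher, with 5 lower and 0 higher at an unadjusted p below 0.05. From 300 to 1000 nM none was called by either tool, against 0% lower and 0% higher, with 3 lower and 5 higher at an unadjusted p below 0.05. Without the 3 libraries that stood apart this last comparison had 2 calls lower and 4 higher, and without replicate 1 of 1000 nM alone 2 higher. Between the DMSO chips none was called by either tool, against 0% lower and 0% higher, with none at an unadjusted p below 0.05.

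**Figure D4:**
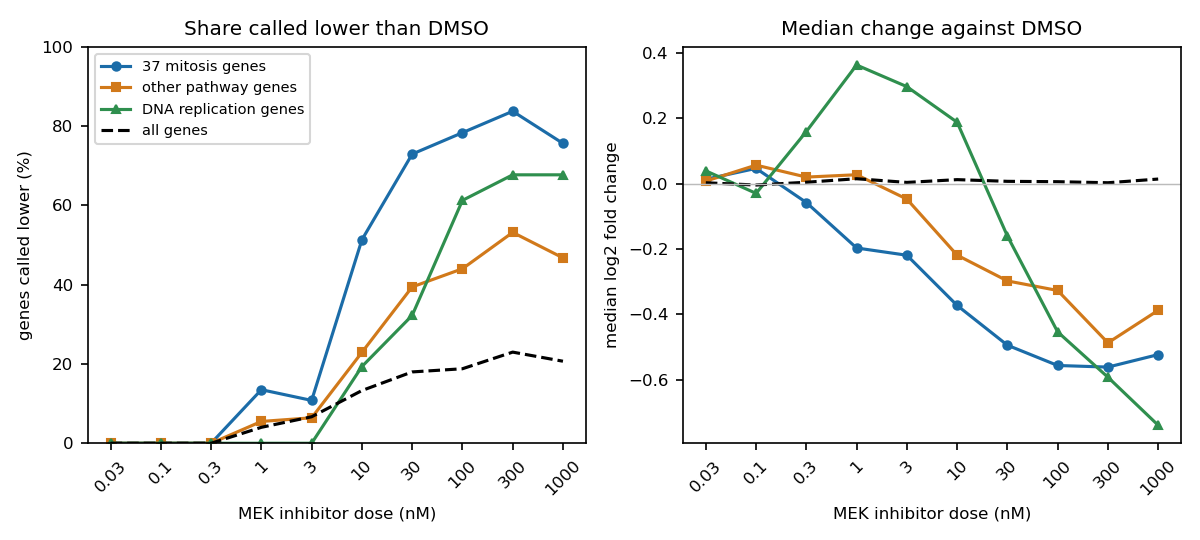
Share of genes called lower than DMSO (left, in percent) and median log2 fold change (right) at each of 10 doses in nM, for the 37 mitosis genes, 109 other mitotic pathway genes, 31 DNA replication genes and all 12102 genes tested (dashed). The median of the replication genes is 0.36 at 1 nM, where that of the mitosis genes is -0.20, and it is -0.74 at 1000 nM.

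Across the 36 libraries the levels of the 37 genes moved together. The correlation of log2 CPM had a median Pearson r of 0.68 over 666 gene pairs, from -0.40 to 0.93, where all points share the dose series. As deviations from the mean of each group, the median was 0.02, from -0.69 to 0.78. PTTG1 and DLGAP5 had the lowest median r with the other 36 genes, -0.10 and 0.13. The highest in the deviations were NDC80 and PRC1 (r = 0.93 in levels and 0.78 in deviations) and CENPA and PRC1 (0.92 and 0.77). These are the top of 666 pairs, and other pairs were as clearly negative. What part of this comes with single libraries was not tested.

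NDC80, PRC1, ECT2 and CENPE, singled out after their values were seen, differed widely between libraries of 1 dose. At 1000 nM the 3 libraries had 3.10, 6.73 and 13.03 CPM for NDC80, 18.0, 34.2 and 50.9 CPM for PRC1, and 14.1, 16.4 and 35.0 CPM for ECT2. Replicate 3 was the highest for all of them, as for CENPE. At 300 nM NDC80 had 4.41, 5.55 and 3.09 CPM, PRC1 21.8, 30.9 and 16.0 CPM, and ECT2 15.3, 14.3 and 12.4 CPM, and here replicate 3 was the lowest. At 300 nM their changes were -2.25 (SE 0.306), -1.78 (SE 0.285) and -1.87 (SE 0.290), larger in size than at 1000 nM. At 1000 nM, the change without replicate 3 was -1.59 for PRC1 and -1.76 for ECT2, and without replicate 1 it was -0.87 and -0.98. However, no gene of the 37 was called between these doses. Over all genes, replicates 1 and 3 of 1000 nM and replicate 1 of 1 nM had the largest root mean square deviations from their group means, 0.348, 0.318 and 0.344 in log2 CPM, against 0.204 to 0.284 in the other libraries. What part of the spread in these genes comes with the library was not tested.

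**Figure D5:**
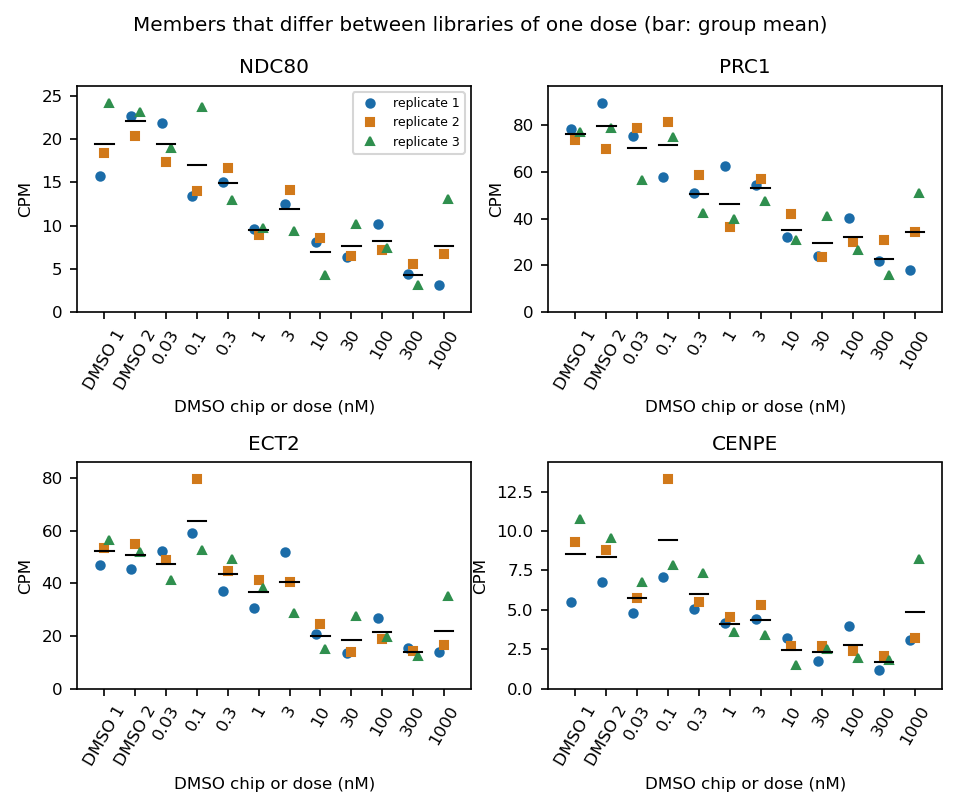
Normalised counts (CPM, vertical axis) of NDC80, PRC1, ECT2 and CENPE in each library, by DMSO chip or dose in nM, with a colour and shape for each replicate number and a bar for the group mean. At 1000 nM replicate 3 is the highest in each panel, with 13.03 CPM for NDC80 and 50.9 CPM for PRC1, while replicate 1 has 3.10 and 18.0 CPM.

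Other genes of the mitotic machinery, from lists of 114 genes of which 113 were present and 109 tested, fell in 51 cases and rose in 3 at 1000 nM, with a median of -0.39. Of all genes tested, 20.7% were called lower and 21.2% higher at that dose. At 1 nM, 6 of these fell and 6 rose, with a median of 0.03, near the shares of 4.02% lower and 3.95% higher over all genes. Condensin, which compacts chromosomes, fell in 6 of 8 subunits, with the largest fall for NCAPD3 (-0.71, SE 0.130). Of 27 other kinetochore and centromere genes 12 fell and 1 rose. SKA1, which holds kinetochores on shrinking microtubules, went from 19.8, 23.5 and 26.4 CPM as lowest, median and highest DMSO values to 3.66, 6.73 and 7.24 CPM (-1.97, SE 0.220), and no treated library reached the DMSO range. CENPT, an inner kinetochore protein, rose by 1.22 (SE 0.395) at low counts, with 2.17 ± 0.433 CPM (SD, n = 3 pairs) in DMSO and 5.08 ± 1.06 CPM (SD, n = 3) at 1000 nM. That call was lost without replicate 2 of DMSO chip 1, replicate 3 of DMSO chip 2 or replicate 3 of 1000 nM (adjusted p = 0.0624 to 0.0828 in edgeR's quasi-likelihood test).

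Of 21 other spindle, kinesin and cytokinesis genes 13 fell, with the largest value for KIF22 (-1.33, SE 0.364), a chromosome arm motor. Its libraries at 1000 nM had 2.81, 3.51 and 12.8 CPM, replicate 3 being far above the others, and the value was -2.39 without that library and -0.98 without replicate 1. Its call was lost without the 3 libraries that stood apart (adjusted p = 0.0521 in edgeR's quasi-likelihood test). Of 13 other mitotic kinases, cyclins and phosphatases 8 fell, with the largest fall for PKMYT1 (-1.63, SE 0.168), a kinase that holds CDK1 inactive. Of 12 cohesion genes 4 fell and 1 rose. CDCA5, sororin, which stabilises cohesin, fell by 1.00 (SE 0.120), and the cohesin regulator PDS5A rose by 0.29 (SE 0.102). The call of PDS5A was lost without the 3 libraries that stood apart (adjusted p = 0.118 in edgeR's quasi-likelihood test), under both other filters (up to 0.111) and without any of 6 single libraries (up to 0.241). Of 14 other subunits and regulators of the anaphase promoting complex 4 fell and 1 rose, with ANAPC7 at -1.27 (SE 0.131) and CDC26 at 1.01 (SE 0.158). Among 13 regulators of mitotic transcription 4 fell, LIN9 of the MuvB core by 0.80 (SE 0.155) and MYBL2, its partner in S phase, by 0.69 (SE 0.151). For cohesion, the anaphase promoting complex and the transcription regulators, the lists are small and the counts that fell were not read as different from the 20.7% of all genes called lower.

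DNA replication genes, which act before mitosis in the same cycle, moved otherwise at low doses. Of 31 tested, 15 rose and 0 fell at 1 nM, with a median of 0.36, while 5 of the 37 mitosis genes fell and 0 rose at that dose, against 3.95% of all genes higher and 4.02% lower. At 3 nM 9 replication genes rose and 0 fell (6.66% and 6.68% of all genes). At 10 nM 7 rose and 6 fell (13.5% and 13.3% of all genes), and at 100 nM 1 rose and 19 fell (18.4% and 18.8%). At 1000 nM 0 rose and 21 fell (21.2% and 20.7%), with a median of -0.74, against -0.52 for the mitosis genes. These comparisons share the DMSO libraries, and the difference between the lists was not tested. The counts of replication genes were not repeated under the alternatives, while the mitosis count at 1 nM changed with them. Replicate 1 at 1 nM was among the libraries that stood apart.

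Readouts of ERK and of the cell cycle gave context at 1000 nM. DUSP6 had 58.5, 63.7 and 69.5 CPM as lowest, median and highest DMSO values and 1.41, 2.34 and 1.93 CPM at 1000 nM, so the groups did not overlap and DUSP6 fell by 5.06 on the log2 scale (SE 0.196). MKI67, a marker of cycling cells, had 163, 185 and 219 CPM in DMSO and 248, 181 and 179.7 CPM at 1000 nM, where replicate 1 was above all DMSO libraries. Its value of 0.12 (SE 0.112) was not called, and was -0.06 without replicate 1 of 1000 nM. Of 6 tested inhibitors of cyclin-dependent kinases 4 rose and 1 fell, against 21.2% of all genes higher and 20.7% lower. CDKN1A (p21) had 198, 204 and 209 CPM in DMSO and 322, 292 and 240.3 CPM at 1000 nM, a rise of 0.48 (SE 0.104) with every treated library above DMSO. CDKN1C (p57) rose by 0.81 (SE 0.248), CDKN2B (p15) by 2.64 (SE 0.134) and CDKN2C (p18) by 0.83 (SE 0.160), while CDKN1B (p27) fell by 0.33 (SE 0.112). CDKN1C was not called without replicate 1 of DMSO chip 2 or replicate 2 of 1000 nM (adjusted p = 0.163 and 0.145 in edgeR's quasi-likelihood test). CDKN1B rested on replicate 1 of 1000 nM, at 89.8 CPM beside 143 and 138 CPM, and without it had -0.15 (adjusted p = 0.426 in edgeR's quasi-likelihood test). CDKN1B was also not called with library totals only (0.0610), with only the compared groups fitted (0.101), or without replicate 1 or 3 of DMSO chip 1 (0.0576 and 0.0615).

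Of the markers of another cell type, 3 also moved with dose. The 9 fibroblast markers checked summed to 3.28 to 4.51 CPM in DMSO and 41.0 to 42.4 CPM at 1000 nM. Nearly all of this came from COL1A1, COL3A1 and LUM, the 3 that passed the filter, which were higher at 1000 nM. These 3 had at most 2.5 CPM in any DMSO library and passed the filter through treated libraries. A rise among them was thus fixed by the filter and says nothing about the marker list. The other markers had at most 3 counts in any library. At 1000 nM 4 of the 9 had 0 counts. The 9 epithelial markers were all detected and summed to 3729 to 3935 CPM in DMSO and 4202 to 4626 CPM at 1000 nM. The part of these levels in the falls of the mitosis genes was not tested.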

How the data were processed

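Expression was measured by amplicon sequencing (Ion AmpliSeq) in 36 libraries of LoVo cells. The authors deposited whole-number counts per gene without normalization; per the submitters' processing notes, hg19 was the genome build. Aligner and counter: not given in the sources used here. Rows of 10 spike-in controls, at 0 in every library, were removed. Counts were fitted with edgeR 4.0.16 in R 4.3.3 (TMM, filterByExpr, robust quasi-likelihood, 12 groups, 24 residual degrees of freedom), and 15 comparisons were made. For a dose, the larger p against the 2 DMSO groups was adjusted by Benjamini-Hochberg over 12102 genes. DESeq2 1.42.0, other scalings, filters, DMSO rules and left-out libraries were alternatives. The procedure was also run on simulated counts, drawn independently for each gene and library. These held no RNA shared between DMSO chips and no deviations of whole libraries, so that run does not address such features. Log2 CPM used a prior count of 1. Curves with a base, a maximal change and an EC50 were fitted by least squares, DMSO being dose 0 (Python 3.11.15, scipy 1.17.1).

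The mitosis genes, the other lists and the rule for named genes were chosen with earlier results of these data known. The rule takes all 37 mitosis genes at 1000 nM, with library values for the smallest and largest adjusted p of each role and for CDK1, CCNB1, PLK1, FOXM1 and TOP2A. At other comparisons it takes the gene with the smallest adjusted p, of each other list the largest called fall and rise, and always MKI67, DUSP6, MYBL2, CDKN1A, CDKN1B and CDKN1C. Further genes named were picked after their values were seen. Promoters of AURKA, BIRC5, FOXM1, RACGAP1, TPX2, TTK and UBE2C were not analysed here. Same-numbered DMSO libraries of the 2 chips had deviations correlated at 0.10 to 0.15, against -0.10 to -0.0021 for other pairs across the chips, and differed less in counts than those, so each pair counted as 1 sample in means.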

Additional observations from a re-analysis of the deposited data

How the results depend on the processing

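The count of mitosis genes that fell stayed within 1.5 times its main value at 10, 30, 100, 300 and 1000 nM under every alternative run, with 26 to 31 genes at 1000 nM over the analysis settings and 25 to 29 with libraries left out singly. At low doses it did not. At 0.3 nM 1 gene was called lower with no filter and 1 with only the compared groups fitted. At 1 nM the number was 13 against the mean of the DMSO groups, 10 against DMSO of chip 2 alone, 10 after summing DMSO over chips and 2 to 5 with libraries left out. At 3 nM it was 13, 7 and 9 in the same order, 8 without the 3 libraries that stood apart, 11 with only the compared groups fitted and 2 to 5 with libraries left out. From 0.3 to 3 nM it was 1 with no filter, 5 without the 3 libraries, 7 with only the compared groups and 1 to 3 with libraries left out. From 3 to 30 nM libraries left out gave 7 to 12. From 300 to 1000 nM there were 2 calls lower and 4 higher without the 3 libraries, 3 higher with no filter and 0 to 2 higher with libraries left out.

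At 1000 nM DLGAP5 was -0.018 with no filter, -0.029 with at least 1 CPM in 3 libraries, -0.0026 with DMSO chip 1 alone, -0.011 with DMSO summed, -0.13 without the 3 libraries and -0.14 to 0.14 with libraries left out. PTTG1 was 0.066 with DMSO chip 2 alone and -0.20 to 0.073 with libraries left out, and MKI67 was -0.051 without the 3 libraries and -0.057 to 0.20 with libraries left out. The cause was not tested. CDC25C, KIF20A, CENPE and TOP2A gained a call at 1000 nM under some alternatives. Apart from the DMSO libraries of both chips, replicate numbers did not pair the libraries: over all groups, of 198 same-numbered pairs 16 had deviations correlated above 0.1, the median was -0.01 and 11 of 36 libraries correlated best with their own number. With the replicate block 29 genes fell at 1000 nM, the added one being CENPE at -0.76 (adjusted p = 0.0497 in edgeR's quasi-likelihood test). The EC50 of DUSP6 was 7.75 nM with a prior count of 5. Counts include amplification duplicates, so counting error understates the noise of genes at a few CPM, such as CENPE, AURKA and CDC25C.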
